A study of Mus musculus with 8 samples.

Results

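The genes described here are 10 effector genes of macrophage polarization, chosen by name from a table of 57010 genes and kept whatever their level. They are 6 genes of the alternative or M2 type (Arg1, Mrc1, Cd163, F13a1, Clec7a and Tgm2) and 4 of the classical or M1 type (Nos2, Tnf, Il1b and Fcgr1), and each symbol has a single row. All were measured by RNA sequencing of retina from C57BL/6J mice at 17 days of age after oxygen-induced retinopathy, a model in which high oxygen removes part of the young capillary bed and abnormal vessels follow on return to room air. The 4 control libraries are from retinas given a control scAAV (self-complementary adeno-associated virus, a gene delivery vector). The 4 knockdown libraries are from retinas given an scAAV against lncRNA-MM2P, a long noncoding RNA known as a regulator of M2 polarization. The description of the study calls the second group knocked down, while its treatment label reads AAV KO. Both groups have retinopathy, and what promoter or serotype the vectors had is not stated in the labels. Nor do the labels tie a replicate to an animal, so p-values measure the spread between these samples alone, which may be technical.

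Macrophages and microglia change their effector genes with the signals they meet. Interferon-γ and bacterial products favour a classical state with nitric oxide, TNF and IL-1β, and IL-4 and IL-13 favour an alternative state with arginase, mannose receptor and other scavenging and matrix genes. In oxygen-induced retinopathy such cells gather around the abnormal vessel tufts. Many cells carry genes of both types at once, and several of the 10 genes are also made by other cells, Tgm2 by endothelium for example.

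No gene of the 10 passed the main test between the groups, which used an expression filter for the 7 genes that reached it. Arg1 did pass in a fit with no filter (edgeR adjusted p = 0.00404), but not once knockdown 1 was left out (0.828). The higher knockdown means of F13a1, Tgm2 and Clec7a, and most of that of Arg1, came from 1 library, knockdown 1. Arg1 was at 16.1 TPM (transcripts per 1000000) in that library and at 0.993 to 1.92 TPM in the other 7. Fcgr1 was the gene with the most even shift, from 2.12 ± 0.715 TPM in the controls to 1.16 ± 0.432 TPM in the knockdown (SD, n = 4), and it too did not pass in this test. In edgeR, with Benjamini-Hochberg adjustment over 16118 genes with at least 1 TPM in at least 4 libraries, 10 genes (0.062%) were called at an adjusted p under 0.05, and 0 of the 7 polarization genes that reached this filter were among them. At an unadjusted p under 0.05 there were 2 of the 7, Arg1 and Fcgr1, against 5.27% of all tested genes. DESeq2, which gave no p-value for Arg1, and limma also called 0 of the 7. The levels of the groups overlapped in all 10 genes, where 2.95% of tested genes had groups that did not overlap.

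Totals of estimated counts ran from 20.5 to 21.4 M (M, 1000000 counts) in the controls and from 16.03 to 20.2 M in the knockdown libraries. The target, listed as Mm2pr, had 1 to 16.95 counts in the controls and 0 to 20.6 in the knockdown, so it does not check the labels. Retinal identity was clear, with the 6 rod markers at a summed 27347 to 30939 TPM. Lens markers, 7 genes such as Cryaa, summed to 2.83 to 5.03 TPM in the controls and 24.5 to 276 TPM in the knockdown. They were highest in knockdown 3, not in knockdown 1, which had 75.0 TPM. The crystallin genes Cryaa, Cryba1, Crygc and Crygd were 4 of the 10 genes called in edgeR, all higher in the knockdown, and the part of lens RNA in other results was not tested. Knockdown 1 stood apart from the others in the genes described here, and control 3 was the lowest control for the interferon-inducible genes Gbp2 and Fcgr1, so results that rest on either are given with and without it.

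**Figure D1:**
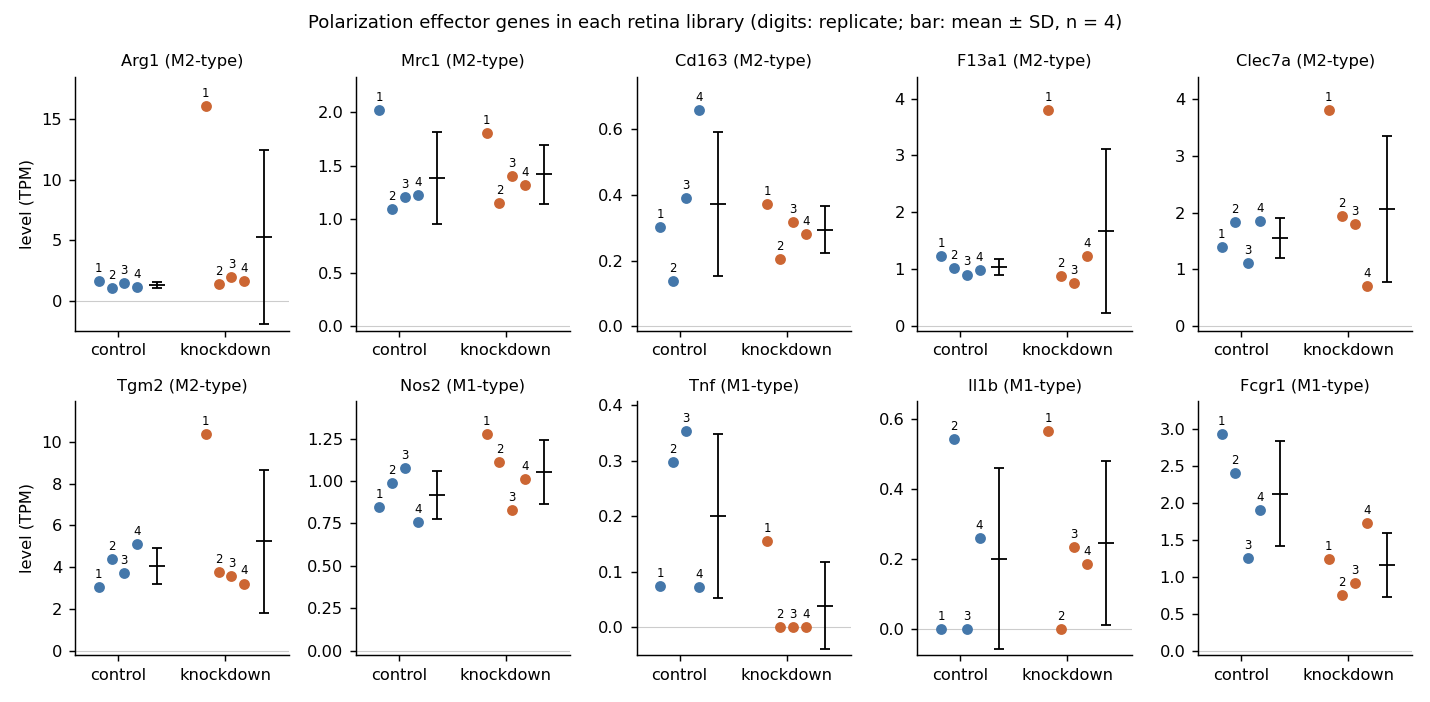
Level of each of the 10 genes in each library, in TPM on a linear axis that differs between panels; points are libraries (digits give the replicate) and bars the mean ± SD of 4. Knockdown 1 lies far above the other 7 libraries for Arg1, F13a1 and Tgm2, while Fcgr1 is lower in most knockdown libraries with overlap between the groups.

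All 10 genes are scarce in whole retina. In the controls the order of levels per length was Tgm2 at 4.07 ± 0.870 TPM, Fcgr1 at 2.12 ± 0.715, Clec7a at 1.55 ± 0.355, Mrc1 at 1.39 ± 0.430, Arg1 at 1.27 ± 0.267, F13a1 at 1.04 ± 0.142 and Nos2 at 0.917 ± 0.144 TPM (SD, n = 4). Cd163 followed at 0.373 ± 0.218 TPM, Il1b at 0.200 ± 0.258 TPM and Tnf at 0.199 ± 0.148 TPM. The ranges of neighbours in this order overlapped from Fcgr1 down to Nos2 and among Cd163, Il1b and Tnf. The lowest control value of Tgm2 lay above the highest of Fcgr1, and that of Nos2 above the highest of Cd163. The filter was reached by 5 M2-type and 2 M1-type genes. F13a1 and Nos2 reached 1 TPM in exactly 4 libraries, knockdown 1 among them, and so passed only with that library counted. Cd163, Tnf and Il1b reached 1 TPM in 0 libraries.

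The 250 bases before the start of Fcgr1 and of Clec7a are printed, from RefSeq's promoter table on GRCm38.p6. Of the 7 polarization genes with an entry, these were the only ones with a match to a motif searched. Both lie on the minus strand, at chr3:96293970-96294219 and chr6:129472780-129473029. Capitals mark a match to TTCNNNGAA, an interferon-γ-activated type of site, in Fcgr1, and to the STAT6-type motif, TTC and GAA with 4 free bases between them, in Clec7a.
Fcgr1: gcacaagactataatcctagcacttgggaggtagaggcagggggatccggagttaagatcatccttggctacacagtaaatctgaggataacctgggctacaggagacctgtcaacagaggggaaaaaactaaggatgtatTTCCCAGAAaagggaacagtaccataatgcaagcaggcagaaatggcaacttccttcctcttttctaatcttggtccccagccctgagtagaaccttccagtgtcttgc
Clec7a: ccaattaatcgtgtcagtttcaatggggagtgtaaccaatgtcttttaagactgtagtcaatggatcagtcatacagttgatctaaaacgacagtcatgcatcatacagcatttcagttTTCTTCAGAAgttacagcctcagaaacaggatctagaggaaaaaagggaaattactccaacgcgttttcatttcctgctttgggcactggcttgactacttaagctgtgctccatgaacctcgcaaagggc
The Fcgr1 match runs from -109 to -101 and the Clec7a match from -131 to -122, counted from the start of the gene. Both motifs read the same on either strand and neither match overlaps another motif searched. Of all 32851 promoters of 300 bases in the table, 8.30% held the first motif and 6.95% the second. The interferon-stimulated response element (3.44% of promoters) and the AP-1 letters TGANTCA (7.81%), searched on both strands, had no match in the windows of the 7 polarization genes with an entry. These 7 are Mrc1, Il1b, Fcgr1, Cd163, Clec7a, F13a1 and Tnf. Mrc1, Il1b, Cd163, F13a1 and Tnf had no match to the motifs marked in Fcgr1 and Clec7a either. A match describes these letters and is not a shown binding site.

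Arg1 encodes arginase 1, which turns arginine into ornithine and urea and so competes with nitric oxide synthase for its substrate (ENSMUSG00000019987; GRCm38 chromosome 10, 24915221 to 24927484, minus strand). It had 1.57, 0.993, 1.41 and 1.11 TPM in controls 1 to 4 and 16.1, 1.40, 1.92 and 1.6 TPM in knockdown 1 to 4. Knockdown 1 was 8.37 times the highest other library, and of the other 3 knockdown values 1 lay inside the control range and 2 just above it. The corresponding estimated counts were 186 in knockdown 1 and 12 to 19 elsewhere. The edgeR log2 fold change was 2.07 (SE 0.73, unadjusted p = 0.0130, adjusted p = 0.787). Without knockdown 1 it was 0.33 (SE 0.34, edgeR adjusted p = 0.837). DESeq2 gave a log2 fold change of 2.08.

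The call of Arg1 depended on the expression filter. In an edgeR fit over all 29610 genes with a count, of which 157 (0.53%) were called, its log2 fold change was again 2.07, with an adjusted p of 0.00404. In that fit, too, the call was lost without knockdown 1 (log2 fold change 0.33, edgeR adjusted p = 0.828). Arginase 1 is abundant in liver. The hepatocyte marker Alb (albumin) was at 0 TPM in knockdown 1, in control 2 and in control 4, and at most at 0.228 TPM elsewhere. The 6 hepatocyte markers, most of whose signal was the pigment epithelium transcript Ttr, summed to 177 to 214 TPM in the controls and 143 to 219 TPM in the knockdown. Ttr was at 219 TPM in knockdown 1 and 142 to 213 TPM in the others. The part of liver RNA in the level of Arg1 was not tested.

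F13a1 and Tgm2 both encode transglutaminases, which cross-link proteins. F13a1 is the catalytic subunit of coagulation factor XIII, made by monocytes and macrophages, and Tgm2 the tissue enzyme. F13a1 (ENSMUSG00000039109; chromosome 13, 36867178 to 37050244, minus strand) had 1.24, 1.02, 0.908 and 0.979 TPM in the controls and 3.81, 0.883, 0.757 and 1.23 TPM in the knockdown. Tgm2 (ENSMUSG00000037820; chromosome 2, 158116402 to 158146436, minus strand) had 3.06, 4.38, 3.74 and 5.09 TPM in the controls and 10.4, 3.78, 3.55 and 3.22 TPM in the knockdown. In both genes knockdown 1 was above all 7 other libraries, 3.08 times the highest for F13a1 and 2.04 times for Tgm2, and knockdown 2 to 4 lay inside the control range or below it. By edgeR, F13a1 had a log2 fold change of 0.72 (SE 0.44, adjusted p = 0.971) and Tgm2 of 0.38 (SE 0.34, adjusted p = 0.989). Without knockdown 1 they were -0.13 (edgeR adjusted p = 0.938) and -0.24 (0.779). Rprd1b lies across part of Tgm2 on the opposite strand, and Gm49144 and Gm30489 across part of F13a1. The counting is not stated to use strand, so reads in those stretches are of uncertain origin.

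Endothelial cells also make Tgm2. The 11 endothelial markers summed to 319 TPM in knockdown 1 and 320 to 330 TPM in knockdown 2 to 4, against 318 to 379 TPM in the controls. Of the 11, 10 had negative log2 fold changes (90.9%, against 48.2% of all tested genes), with a median of -0.21. At an unadjusted edgeR p under 0.05 there were 6, against 5.27% of all tested genes, and 0 were called. Among the other 7 transglutaminase genes only Tgm4 reached the filter, at 6.22 ± 0.950 TPM in the controls and 6.07 ± 1.18 TPM in the knockdown (SD, n = 4), a difference of -0.04 in log2 units (adjusted p = 0.997, edgeR). Tgm7 was next in level, below the filter. In knockdown 1 Tgm4 was at 4.98 TPM, below the 5.48 to 7.72 TPM of the others.

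Clec7a encodes dectin-1, a receptor for fungal β-glucan that is also a marker of reactive microglia (ENSMUSG00000079293; chromosome 6, 129461591 to 129472779, minus strand). It had 1.40, 1.83, 1.12 and 1.86 TPM in the controls and 3.82, 1.94, 1.80 and 0.712 TPM in the knockdown. The knockdown libraries held both the highest and the lowest value of the 8. The difference in log2 units was 0.42 (SE 0.40; adjusted p = 0.989, edgeR) and, without knockdown 1, -0.10 (adjusted p = 0.962). Of the 6 genes that carry dectin-1 signals, 5 were tested, 0 were called, and the median log2 fold change was -0.03 (0.00 over all tested genes). The highest of them were Bcl10 and Malt1, partners in the complex that activates NF-κB. Bcl10 had 26.3 ± 2.68 and 25.3 ± 3.25 TPM, and Malt1 16 ± 2.01 and 16.3 ± 2.06 TPM (SD, n = 4).

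The scavenger receptor genes among the 10, Mrc1 and Cd163, showed no such peak in knockdown 1. Mrc1, the macrophage mannose receptor (ENSMUSG00000026712; chromosome 2, 14229392 to 14332057, plus strand), had 2.02, 1.09, 1.21 and 1.22 TPM in the controls and 1.80, 1.16, 1.41 and 1.32 TPM in the knockdown. Its highest value was in control 1. The difference in log2 units was 0.04 (SE 0.23; adjusted p = 0.998, edgeR). Its approximate 95% interval, computed from the SE with 6 degrees of freedom, ran from -0.53 to 0.61. Cd163, the receptor for haemoglobin bound to haptoglobin (ENSMUSG00000008845; chromosome 6, 124304656 to 124330527, plus strand), had 0.303, 0.137, 0.391 and 0.660 TPM in the controls and 0.373, 0.204, 0.319 and 0.280 TPM in the knockdown. These are 5 to 25 counts a library. In the fit over all genes with a count, Cd163 differed by -0.37 in log2 units (SE 0.47; adjusted p = 0.894, edgeR), with an approximate 95% interval of -1.52 to 0.79.

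**Figure D2:**
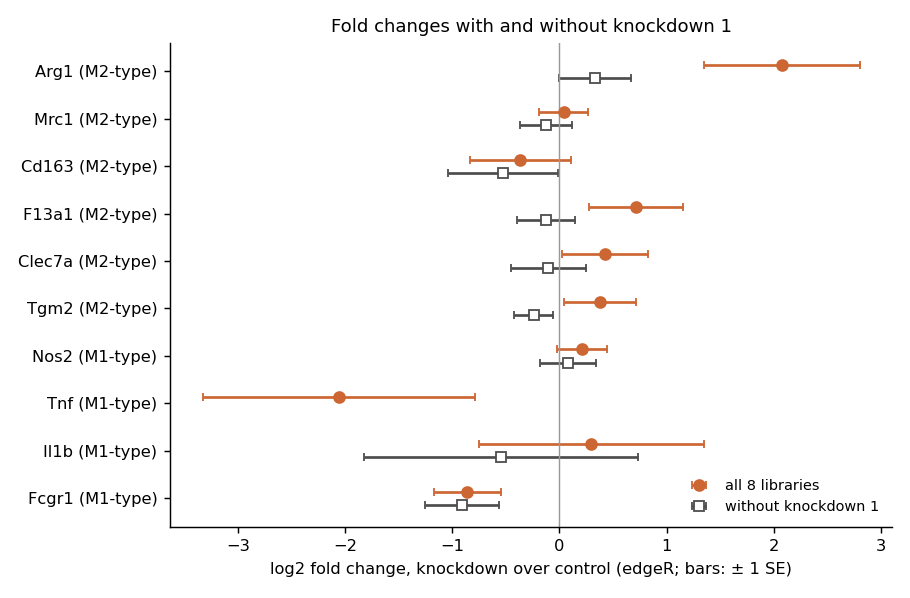
Log2 fold changes of the 10 genes, knockdown over control, from edgeR with all 8 libraries (filled circles) and without knockdown 1 (open squares); bars are ± 1 SE, and no square is drawn for Tnf, which had 0 counts in the remaining knockdown libraries. Arg1 moves from 2.07 to 0.33, and F13a1, Clec7a and Tgm2 cross 0, while Fcgr1 stays near -0.9.

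Some other scavenger receptor genes did peak there, and others did not. Msr1, scavenger receptor A of the other M2-type list, was at 4.21 TPM in knockdown 1 and 0.349 to 1.22 TPM elsewhere, Cd36 at 5.22 against at most 3.54 TPM and Mrc2 at 3.43 against at most 2.26 TPM. These 3 were chosen after their values were seen, as were the next 3. Stab1 at 2.90 TPM and Lyve1 at 10.4 TPM in knockdown 1 lay inside the ranges of the others (2.45 to 4.31 and 10.1 to 13.3 TPM). Ly75 at 0.961 TPM was below the 0.986 to 1.83 TPM of the others. Of the 8 tested genes of the other M2-type list 1 was highest in knockdown 1 (12.5%, against 12.1% of all tested genes). Of 11 genes of haem handling and scavenging 9 were tested and 0 were called. Highest in knockdown 1 were 4 of the 9 (44.4%, against 12.1% of all tested genes). Pla2r1, a mannose receptor relative, was lowest there (44.7 against 52.3 to 72.0 TPM). Hmox1, haem oxygenase 1, was at 58.6 TPM in knockdown 1 and 3.73 to 7.83 TPM elsewhere (edgeR log2 fold change 1.57, adjusted p = 0.913, and -0.17 without knockdown 1). The ferritin chains had the highest levels of the list, Fth1 at 1303 TPM in knockdown 1 and 1019 to 1144 TPM in the others, and Ftl1 at 801 TPM against 514 to 625 TPM. The median log2 fold change of the 9 was 0.04, and without knockdown 1 it was -0.08.

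Among the M1-type genes, Fcgr1 encodes CD64, the high-affinity receptor for IgG, which interferon-γ induces (ENSMUSG00000015947; chromosome 3, 96282909 to 96293969, minus strand). It had 2.93, 2.41, 1.25 and 1.90 TPM in the controls and 1.23, 0.750, 0.912 and 1.73 TPM in the knockdown. Knockdown 1 to 3 lay below all controls, and knockdown 4 lay above control 3. The log2 fold change was -0.86 (SE 0.31, unadjusted p = 0.0163, edgeR adjusted p = 0.822). Leaving out control 3 gave -1.04 (edgeR adjusted p = 0.524), and leaving out knockdown 1 gave -0.91 (0.534). In the edgeR fit over all genes with a count the adjusted p was 0.396 with all libraries, but 0.0491 without knockdown 4 (log2 fold change -1.12) and 0.0381 without control 3 and knockdown 1 together (-1.10), so Fcgr1 was called as lower in those settings. Of 5 genes for other Fc receptors or their shared signalling chain, the 4 that reached the filter had log2 fold changes from -0.38 to 0.01 and adjusted p-values of at least 0.989 in edgeR. Fcgrt, the neonatal Fc receptor, had 10.7 ± 0.854 and 10.1 ± 2.49 TPM, and Fcgr3, a low-affinity activating receptor, 8.47 ± 1.47 and 8.19 ± 1.88 TPM (SD, n = 4). The promoter of Fcgr1 printed above holds the interferon-γ-activated type of letters, as did 8.30% of all promoters. The part of these letters in the level of Fcgr1 was not tested.

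The GTPase gene Gbp2 of the M1-type list, which interferons induce, was low in some of the same libraries as Fcgr1. It had 7.29, 8.98, 3.55 and 6.30 TPM in the controls and 2.52 to 4.32 TPM in the knockdown (a difference of -0.89 in log2 units, SE 0.24; adjusted p = 0.433, edgeR). Control 3 had the lowest control value of both Fcgr1 and Gbp2. Without control 3 Gbp2 was called as lower (edgeR adjusted p = 0.0260), and Fcgr1 was not. The part of this shift in the level of Fcgr1 was not tested.

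Nos2 encodes inducible nitric oxide synthase (ENSMUSG00000020826; chromosome 11, 78920787 to 78960254, plus strand). It had 0.846, 0.991, 1.08 and 0.756 TPM in the controls and 1.28, 1.11, 0.826 and 1.01 TPM in the knockdown, groups that overlap almost throughout. In log2 units the difference was 0.21 (SE 0.24; adjusted p = 0.989, edgeR), with an approximate 95% interval of -0.37 to 0.78. All 14 other genes of arginine metabolism were tested and 0 were called, with a median log2 fold change of -0.04. Oat, ornithine aminotransferase, had 155 ± 6.62 and 163 ± 6.54 TPM, and Odc1, the first enzyme of polyamine synthesis, 151 ± 13.6 and 135 ± 8.10 TPM (SD, n = 4; edgeR adjusted p = 0.989 and 0.913). The mitochondrial arginase gene Arg2, chosen after its values were seen, had 22.7 ± 4.0 and 27.3 ± 2.36 TPM (SD, n = 4; edgeR adjusted p = 0.930), so in the controls Arg2 was well above Arg1 on the same per-length scale.

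Tnf and Il1b, the genes of the inflammatory cytokines TNF and IL-1β, were at the limit of detection. Tnf (ENSMUSG00000024401; chromosome 17, 35199381 to 35202007, minus strand) had 1, 4, 5 and 1 counts in controls 1 to 4 and 2, 0, 0 and 0 in knockdown 1 to 4. The limit that a count of 0 allows, 3 counts, is 0.228 to 0.288 TPM in those 3 knockdown libraries. Control 1, at 1 count or 0.0746 TPM, lies below that limit. A count of 0 in a single library therefore does not exclude a level like that of control 1. Summed over libraries there were 11 counts in the controls and 2 in the knockdown, a ratio of 4.91 per total count with a 95% exact counting interval of 1.07 to 45.6, which covers counting error only. The test over all genes with a count gave an edgeR adjusted p of 0.844. Il1b (ENSMUSG00000027398; chromosome 2, 129364570 to 129371139, minus strand) had 0, 6, 0 and 3 counts in the controls and 6, 0, 2 and 2 in the knockdown (edgeR adjusted p = 0.977). The antisense gene Il1bos overlaps it.

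The genes for TNF shedding, receptors and signalling were above Tnf in level. Those for IL-1 processing and receptors ran from below Il1b to well above it. Means over the 8 libraries were 0.119 TPM for Nlrp3, 0.166 for Il1rn and 0.0439 for Il1r2, against 0.222 TPM for Il1b. Of 8 genes for TNF shedding, receptors and signalling, all were tested, 0 were called and the median log2 fold change was 0.01. Tnfaip3, the NF-κB inhibitor A20, had 106 ± 5.39 and 103 ± 8.19 TPM, and the adaptor Traf2 18.0 ± 1.39 and 17.6 ± 1.51 TPM (SD, n = 4). Of 9 genes for IL-1 processing and receptors 4 were tested, 0 were called and the median log2 fold change was 0.16. The receptor subunit gene Il1rap had 16.2 ± 0.726 and 18.6 ± 1.91 TPM (edgeR adjusted p = 0.913), and the cytokine gene Il18 11.7 ± 1.48 and 14.7 ± 1.37 TPM (0.937). The sum over the 9 was 32.7 to 34.8 TPM in the controls and 36.2 to 43.9 TPM in the knockdown, most of it Il1rap and Il18. These sums did not overlap (p = 0.0286 by an exact two-sided permutation test, which cannot go lower with these group sizes, and 0.257 after Benjamini-Hochberg adjustment over the 18 lists compared).

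Other genes of both states were also read from lists. Of all tested genes 48.2% had negative log2 fold changes. Of 22 other M2-type genes 8 were tested, 3 with positive and 5 with negative log2 fold changes, a median of -0.05, and 0 called. Retnla, Chil3 and Il10, common M2 markers in mice, had 0 counts in all 8 libraries. The most abundant were Gas6, a ligand for the phagocytic receptor Mertk, at 146 ± 4.64 and 141 ± 2.74 TPM, and the growth factor gene Igf1 at 54.2 ± 0.720 and 59.8 ± 3.61 TPM (SD, n = 4; edgeR adjusted p = 0.989 and 0.824). Both are also made outside macrophages. Of 28 other M1-type genes 9 were tested, 3 with positive and 6 with negative log2 fold changes, a median of -0.19, and 0 called. The protease gene Mmp9 was at 16.8 ± 0.905 and 14.7 ± 2.18 TPM.

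For macrophage and microglia RNA as a whole, no difference beyond the spread between libraries was detected with all 8 libraries. The 23 markers of these cells summed to 281, 312, 287 and 298 TPM in the controls and 420, 275, 283 and 247 TPM in the knockdown (exact two-sided permutation p = 0.971 over 70 assignments, and 0.971 adjusted over the 18 lists). Without knockdown 1 the means were 294 and 268 TPM (exact permutation p = 0.0857). In bulk tissue, fewer such cells and less RNA per cell cannot be told apart. All 23 markers were tested and 0 were called, with 12 positive and 11 negative log2 fold changes and a median of 0.03. Among the highest was the lysosomal protease gene Ctss, at 47.3 ± 5.16 and 49.0 ± 10.1 TPM (SD, n = 4).

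Summed over the 6 M2-type genes, the controls had 9.60, 9.45, 8.78 and 10.9 TPM and the knockdown libraries 36.2, 9.36, 9.76 and 8.36 TPM. Knockdown 1 alone lay outside the control range from above. Summed over the 4 M1-type genes, mainly Fcgr1 and Nos2, the controls had 3.85, 4.24, 2.68 and 2.99 TPM and the knockdown libraries 3.23, 1.86, 1.97 and 2.92 TPM. The M1-type sums overlapped, with the lowest values in knockdown 2 and 3.

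**Figure D3:**
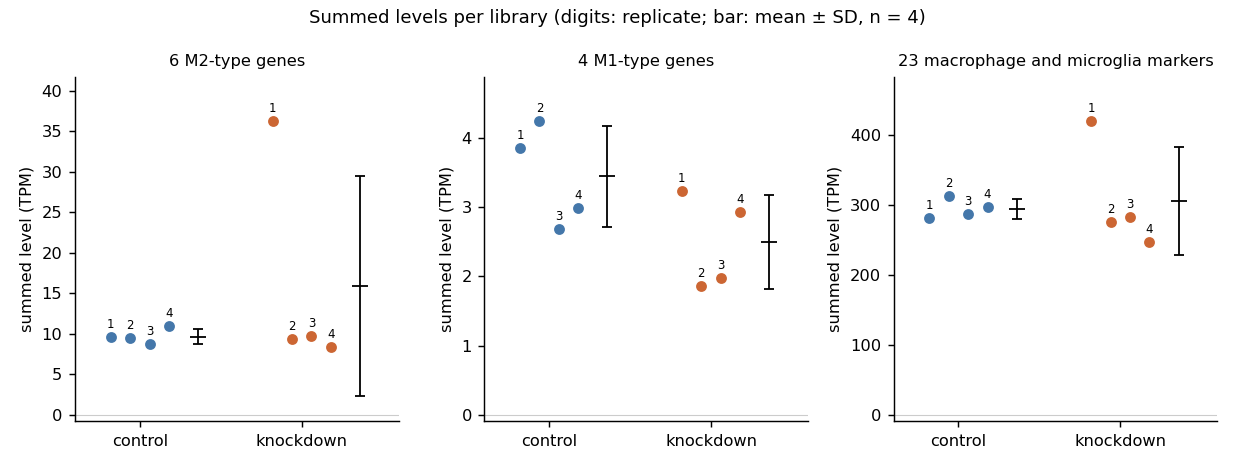
Summed TPM per library of the 6 M2-type genes, the 4 M1-type genes and 23 macrophage and microglia markers; points are libraries (digits give the replicate) and bars the mean ± SD of 4. The M2-type sum is 36.2 TPM in knockdown 1 and 8.36 to 10.9 TPM in the other 7 libraries, and the marker sum is highest there too, at 420 TPM.

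Set against macrophage RNA, the M2-type sum was 3.02% to 3.67% of the marker sum in the controls, 8.64% in knockdown 1 and 3.38% to 3.45% in knockdown 2 to 4. The M1-type sum was 1.17 ± 0.228% in the controls and 0.831 ± 0.238% in the knockdown (SD, n = 4). Arg1 went from 0.436 ± 0.110% in the controls to 3.83% in knockdown 1 and 0.612 ± 0.0900% in knockdown 2 to 4 (SD, n = 3). Mrc1 was at 0.430% in knockdown 1, inside the control range of 0.349% to 0.720%. These shares are descriptions of the libraries and carry no test.

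The marker genes themselves split in knockdown 1, which had the highest level of 11 of the 23 (47.8%, against 12.1% of all tested genes). Lyz2, the lysozyme gene of phagocytes, was at 84.8 TPM there and 14.7 to 30.4 TPM in the other 7 libraries, and the lysosomal membrane gene Cd68 at 15.9 TPM against 4.37 to 9.06 TPM. The microglia gene Olfml3 was at 6.07 TPM against at most 4.73 TPM, and the complement genes C1qb and C1qc were also highest there. The resident microglia genes P2ry12, at 8.07 TPM, and Cx3cr1, at 7.24 TPM, stayed inside the ranges of the others (7.62 to 10.6 and 5.87 to 8.0 TPM). Siglech, at 2.88 TPM, was below the 3.22 to 4.15 TPM of the others. These 8 were chosen after their values were seen. Without Lyz2 the marker sum in knockdown 1 was 335 TPM, against 232 to 295 TPM in the other libraries.

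**Figure D4:**
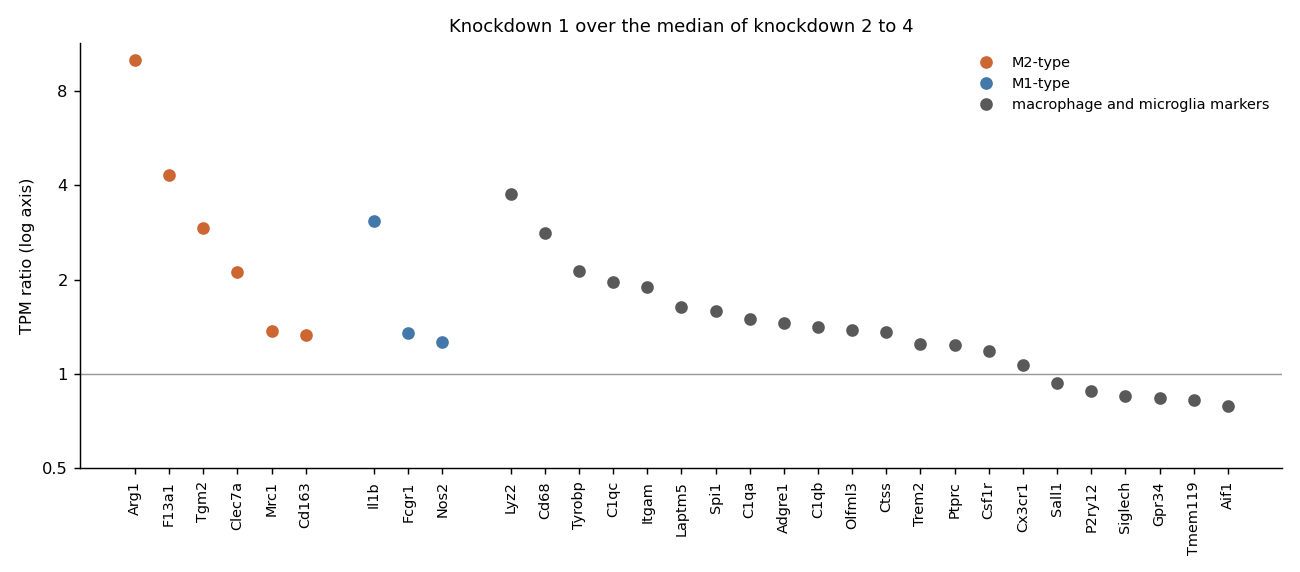
TPM in knockdown 1 divided by the median TPM of knockdown 2 to 4, on a log axis, for the M2-type genes, the M1-type genes (without Tnf, whose median was 0) and macrophage and microglia markers, each sorted. Arg1, at 10, lies above all markers drawn, of which Lyz2 is the highest at 3.75, and markers such as P2ry12 and Siglech lie below 1.

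Markers of incoming blood cells were near 0. The 9 neutrophil markers summed to 0.650 to 1.73 TPM in the controls and 1.51 to 4.34 TPM in the knockdown, with the highest sum in knockdown 1. Their defining genes Mpo, Elane and Ly6g were at 0 in all 8 libraries, and S100a8 and S100a9 were at 1.84 and 2.46 TPM in knockdown 1. The 5 monocyte markers, Ccr2 and Ly6c2 among them, summed to 1.86 to 3.71 TPM in the controls, 3.0 TPM in knockdown 1 and 3.58 to 4.28 TPM in knockdown 2 to 4. Fibroblast and mural cell markers, 10 genes, summed to 227 TPM in knockdown 1 and 231 to 246 TPM in the other knockdown libraries, against 239 to 287 TPM in the controls. Müller glia markers, 6 genes led by Glul and Rlbp1, summed to 3105 to 3394 TPM in the knockdown and 3228 to 3400 TPM in the controls. Most of this sum was Glul. Gfap, the intermediate filament gene of reactive glia, was at 121 TPM in knockdown 1 and 30.6 to 61.9 TPM in the other 7 libraries. Sox9 and Slc1a3 were also highest in knockdown 1. Aqp4 was below the others there (59.5 against 65.0 to 71.2 TPM), and Glul and Rlbp1 lay inside the ranges of the others. The part of these cells in the levels of the polarization genes was not tested.

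Genes were also picked for a pattern most like that of the 3 members with the highest mean over all 8 libraries. These members peaked in knockdown 1, so the picked genes do so by construction. In the controls the 3 highest members were Tgm2, Fcgr1 and Clec7a, so Arg1 was included through knockdown 1. Likeness was the root mean square difference of log2(CPM + 1), centred for each gene, over the 8 libraries (CPM, counts per 1000000). For Tgm2 the nearest were the metallothionein genes Mt1 (difference 0.12) and Mt2 (0.15), whose products bind zinc and copper. Mt1 was at 291 TPM in knockdown 1 and 114 to 148 TPM elsewhere. For Arg1 they were the stress-induced gene Nupr1 (0.18), at 83.5 TPM against 10.8 to 16.9 TPM, and the cytokine signalling inhibitor gene Socs3 (0.19), at 18.1 TPM against 2.44 to 5.24 TPM. For Clec7a they were Ncf1 (0.15), a subunit of the phagocyte NADPH oxidase, at 4.38 TPM against 1.40 to 3.42 TPM, and Tmem71 (0.17).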

How the data were processed

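The authors deposited 1 table whose name says TPM. The deposited values are the authors' estimated counts per gene, not TPM, since the libraries sum to 16.03 to 21.4 M and 90.6% to 91.9% of the entries are whole numbers. Bowtie 0.12.2 and mm9 are named without a role, per the submitters' processing notes. How reads were counted is not given in the sources used here. Libraries were read in pairs of 150 bases, per the labels' protocols. Positions come from GENCODE M21 on GRCm38.

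Counts were rounded for testing, and TPM was computed from the unrounded counts and the table's gene lengths. Genes that reached 1 TPM in 4 or more libraries were tested with edgeR 4.0.16 in R 4.3.3 (quasi-likelihood, TMM, group as the only term; Benjamini-Hochberg adjusted p under 0.05). Members below that filter were tested among all genes with a count. Each SE was derived from the fold change and its F statistic. The floor is 3 counts. DESeq2 1.42.0 and limma 3.58.1 served as alternatives, and the tests were tried on simulated data. Named genes are the 10 members, the called genes or otherwise the 2 most abundant genes of each list, and for the 3 most abundant members the 2 genes most like each. The members, lists and tests were chosen with earlier results of these data known. Some results on single genes of the lists are not reported here.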

Additional observations from a re-analysis of the deposited data

Results flagged for a closer look

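In groups of 4 libraries, 6 of 26 gene or sum patterns had a library far from the other 3. Far means a gap to the nearest over the range above Dixon's 95% critical value. For normally distributed values chance flags about 1 in 20 groups. Low levels need not follow that rate, and a library with counts among 3 at 0 is flagged whatever its value. The share flagged among all tested genes was not computed, so the excess over chance is not known. In the knockdown group the distant library was knockdown 1 each time: Arg1 at 16.06 TPM (others 1.40 to 1.92), Tgm2 at 10.39 TPM (3.22 to 3.78), F13a1 at 3.805 TPM (0.757 to 1.23), the M2-type sum at 36.24 TPM (8.36 to 9.76) and Tnf at 0.1556 TPM, which is 2 counts against 0 in each of the others. The sum holds the 3 genes named before it. In the controls it was Mrc1 in control 1, at 2.025 TPM against 1.09 to 1.22 TPM.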

How the results depend on the processing

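With the filter, 0 of 7 polarization genes were called under each alternative run, leaving out 1 library included. With no filter 1 was called (Arg1, log2 fold change 2.07). In that unfiltered fit Fcgr1 was called without knockdown 4 and without control 3 and knockdown 1 together, and Arg1 was lost without knockdown 1 and by limma. Of the 3 genes below the filter 0 were called under each alternative run. No polarization gene has a mean of 5 TPM, so that filter left none to test. Among the tested genes of the 9 polarization and pathway lists, cell markers not included, the number called was 0 in the main test, 4 with no filter (Gbp2, Socs3 and Hmox1 among them), 2 without control 3 (0 to 2 without 1 library each) and 2 without control 3 and knockdown 1 together, a setting chosen after seeing the data. Without knockdown 1 log2 fold changes became negative for Mrc1 (-0.13), F13a1 (-0.13), Clec7a (-0.10), Tgm2 (-0.24) and Il1b (-0.54), and without control 3 as well they were -0.19, -0.18, -0.23, -0.28 and -0.95. That of Mrc1 was also negative with Ddx3y as a covariate for sex (-0.10), which took that of Arg1 from 2.07 to 1.23, and without control 2 (-0.07), control 3 (-0.02) or control 4 (-0.00), that of Il1b without control 1 (-0.09) or control 3 (-0.10), and that of Cd163 was positive without control 4 (0.088). Without 1 library each the ranges were -0.13 to 0.27 for Mrc1, -0.13 to 0.95 for F13a1, -0.10 to 0.72 for Clec7a, -0.24 to 0.56 for Tgm2, -0.54 to 1.36 for Il1b, -0.65 to 0.09 for Cd163, 0.33 to 2.40 for Arg1 and -1.12 to -0.67 for Fcgr1. The cause of these turns was not tested. The difference in summed TPM, knockdown minus control, was -26.0 to 31.5 without 1 library each for the macrophage markers and -0.53 to 8.77 for the M2-type genes, and without control 3 and knockdown 1 together -28.6 and -0.83.

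With the replicate block the members called were 0 and the log2 fold change of Arg1 was 1.43. Libraries with the same number did not deviate together (r from -0.16 to -0.01 over 4 pairs, and 0 controls correlated best with their own number). The main test therefore used no pairing by number. These values cannot show that the libraries were unpaired. Depth limits Tnf, Il1b and Cd163, with 0 to 25 counts a library.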

Other observations

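Knockdown 1 also held the highest level of genes outside the polarization set, chosen after their values were seen, from those with a large ratio to the highest other library. The acute-phase and glial reactivity genes Serpina3n and Lcn2 were at 159 and 320 TPM there, against 5.17 to 9.43 and 5.48 to 20.9 TPM in the other 7 libraries. Bcl3, a regulator of NF-κB, was at 10.9 TPM (0.254 to 1.39 in the others). Timp1, an inhibitor of matrix proteases, was at 26.6 TPM (0.986 to 3.78 in the others), the secreted phosphoprotein gene Spp1 at 140 TPM (14.6 to 25.6) and the galectin gene Lgals3 at 15.5 TPM (2.07 to 3.64). Of 16118 tested genes 43 (0.267%) were at least 2 times the highest other library in knockdown 1. Of the 7 polarization genes that reached the filter, 3 were (Arg1, F13a1 and Tgm2). F13a1 reached the filter only with knockdown 1 counted, so its place among the 3 is not independent of that library.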
